A study of Mus musculus with 8 samples.

Results

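The F-box protein family was examined in the cardiac ventricles of male C57BL/6 mice. Its members were the protein-coding genes of the count table whose symbol begins with Fbxl, Fbxo or Fbxw and a number. There were 76 such genes, and 5 of them, Fbxo32, Fbxo30, Fbxo31, Fbxo40 and Fbxo21, were left out by the rule that defined the set. That left 71 members, 18 named Fbxl, 32 named Fbxo and 21 named Fbxw, of 43346 genes in the table.

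At 7 weeks, mice received either 1000000 cells of LLC1, a Lewis lung carcinoma line of C57BL/6 origin, or PBS as the vehicle, and ventricular RNA was taken 14 days later. The injection was subcutaneous, in the flank. Each group held 4 mice, and no genotype beyond the strain is given. The mice are named by the codes of their labels, LLC1 1-2, 1-3, 1-5 and 2-2, and PBS 1-1, 1-3, 2-1 and 2-5, and each series of 4 values per group is given in that order. Nothing in the labels says what the first number of a code stands for.

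F-box proteins are the interchangeable substrate receptors of SCF ubiquitin ligases. The F-box itself binds the adaptor Skp1, Skp1 binds the scaffold Cul1, and the RING subunit Rbx1 brings in a charged E2 enzyme, while the rest of the F-box protein holds the substrate. The letter after Fbx records that substrate-binding part, leucine-rich repeats in Fbxl proteins, WD40 repeats in Fbxw proteins and other or no known domains in Fbxo proteins. In striated muscle the family is best known for the atrophy ligase Fbxo32, which is not part of the set described here.

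Library totals ranged from 12480706 to 19747596 counts, so that 3 counts, the limit that a count of 0 allows, corresponded to 0.151 to 0.257 CPM. CPM are counts per 1000000 counts of the library, here scaled by the trimmed mean of M-values (TMM). The members took 0.122% to 0.133% of each library's counts. Cardiomyocyte markers summed to between 78434 and 93852 CPM in every mouse, as the labelled tissue would have, while all 5 lymphocyte and all 4 adipocyte markers were too low to test. PBS 1-1 stood apart from the other mice, with a chi-square per degree of freedom of 59.7 to 116 against them compared with 4.55 to 20.7 among the others. Log2 fold changes of the members described that move by over 1.5 times without that mouse are given with and without it.

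Members were first sorted by whether they had enough counts to compare. Of 71 members, 47 were tested, 16 Fbxl, 23 Fbxo and 8 Fbxw genes. The other 24 were too low, 13 of them without a count in any mouse. Of these 13, 12 were Fbxw genes within 606636 bases of chromosome 9 (mm10, chr9:109139454-109746089), namely Fbxw13 to Fbxw16, Fbxw18 to Fbxw22 and Fbxw24 to Fbxw26. The remaining gene was Fbxo43 (Emi2), known for holding eggs in meiotic arrest. For the chromosome 9 genes the transcripts are near copies of each other, each of the 12 matching another of the group at 90% identity or more over at least 150 bases, and how reads with several matches were counted is not given in the sources used here. A count of 0 for these genes is therefore uncertain for any reads that 2 of them share.

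The chromosome 9 Fbxw genes without a count had few CG pairs before their starts. As examples, the 250 bases before the RefSeq start (GRCm38.p6) are printed for the Fbxw gene with the highest level, Fbxw5, for Fbxw11 (β-TrCP2), the tested Fbxw gene with the most pairs among those with an entry, and for 2 of the chromosome 9 genes without a count, Fbxw21 and Fbxw26. Each runs 5′ to 3′ on the strand of its gene, with capitals marking CG pairs.
Fbxw5 (chr2:25500500-25500749, plus strand): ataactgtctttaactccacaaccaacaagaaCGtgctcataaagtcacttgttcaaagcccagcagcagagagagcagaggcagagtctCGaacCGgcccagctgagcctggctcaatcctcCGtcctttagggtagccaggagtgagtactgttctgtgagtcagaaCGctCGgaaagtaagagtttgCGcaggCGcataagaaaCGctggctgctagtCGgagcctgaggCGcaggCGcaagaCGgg
Fbxw11 (chr11:32642305-32642554, plus strand): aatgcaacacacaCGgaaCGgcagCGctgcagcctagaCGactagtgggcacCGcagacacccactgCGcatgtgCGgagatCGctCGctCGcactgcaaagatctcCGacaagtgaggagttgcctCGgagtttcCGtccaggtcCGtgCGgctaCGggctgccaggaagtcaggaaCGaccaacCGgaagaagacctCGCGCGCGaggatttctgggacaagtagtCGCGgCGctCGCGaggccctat
Fbxw21 (chr9:109162023-109162272, minus strand): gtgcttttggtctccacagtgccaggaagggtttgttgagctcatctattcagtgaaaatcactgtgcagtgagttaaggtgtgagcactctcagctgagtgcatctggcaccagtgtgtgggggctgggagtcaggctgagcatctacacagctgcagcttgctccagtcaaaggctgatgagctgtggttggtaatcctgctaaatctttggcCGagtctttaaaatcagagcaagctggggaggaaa
Fbxw26 (chr9:109746090-109746339, minus strand): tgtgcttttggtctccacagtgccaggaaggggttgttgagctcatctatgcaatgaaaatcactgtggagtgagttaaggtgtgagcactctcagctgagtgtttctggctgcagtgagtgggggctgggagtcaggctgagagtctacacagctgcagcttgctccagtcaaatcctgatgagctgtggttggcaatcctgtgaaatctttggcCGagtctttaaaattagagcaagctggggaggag
The Fbxw5 stretch held 13 CG pairs and the Fbxw11 stretch 27, whereas the Fbxw21 and Fbxw26 stretches held 1 each. The Fbxw21 and Fbxw26 stretches were identical in 231 of 251 aligned columns (92.0%), compared with 53.3% for Fbxw5 and Fbxw11.

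Over the family, a RefSeq promoter within 1000 bases of the gene's start in the count table was found for 51 members. The 34 tested members had a median of 14.5 CG pairs in those 250 bases (range 2 to 47), and 28 of them (82.4%) had 10 or more. All 9 chromosome 9 genes with an entry had between 0 and 4 pairs, with a median of 1. Among all 27025 RefSeq genes with an entry the median was 6, and 38.2% had 10 or more. The 8 members with a few counts but too low to test were like the tested ones, with a median of 15 pairs and 7 of 8 at 10 or more. The exception was Fbxw10, which had 22 counts and 1 pair, as few as the chromosome 9 genes, and the tested Fbxw17, with 691 counts, had 7 pairs. CG-poor promoters were also found before expressed members, as with 2 pairs before Fbxo6 and 4 before Fbxl22. Fbxw5, the most abundant member, stood near the median of the tested members with its 13 pairs. These are counts of letters, and no methylation was measured.

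**Figure D1:**
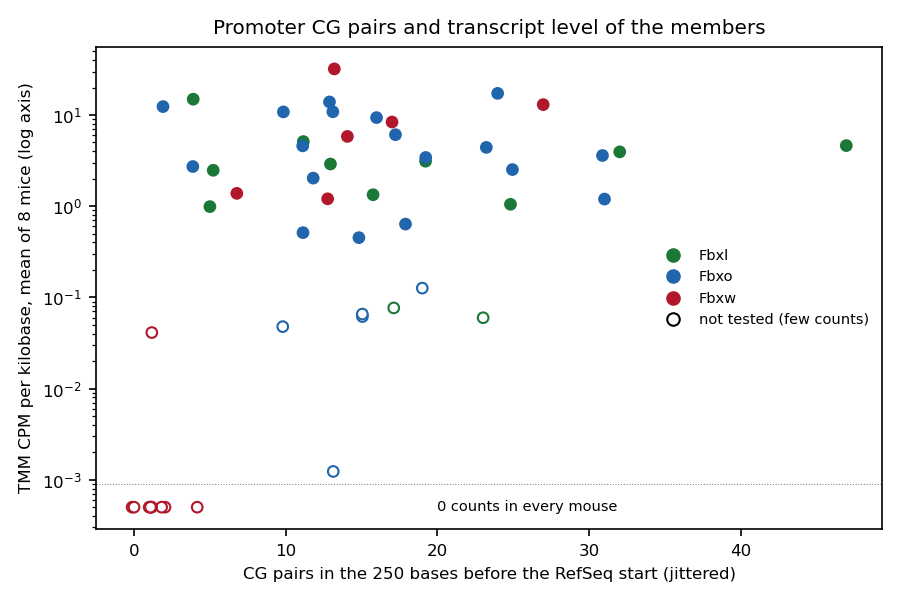
Number of CG pairs in the 250 bases before the RefSeq start (x axis, jittered) against the mean level over all 8 mice in TMM CPM per kilobase (y axis, log scale), 1 point per member and colored by name class, with open circles for members too low to test. The Fbxw genes of chromosome 9 without a count form a group at 0 to 4 pairs below the dotted line, where members without a count in any mouse are placed, while tested members spread from 2 to 47 pairs.

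Among the 47 tested members, the mean level per kilobase of transcript ranged from 0.452 CPM per kilobase for Fbxo17 to 32.03 for Fbxw5, a ratio of 70.9, with a median of 4.41. Levels are compared between genes only on this per-length scale. Fbxw5, which takes part in the turnover of Tsc2 and of a centriole protein, had 30.4 ± 3.1 in PBS and 33.7 ± 0.49 in LLC1 mice (SD, n = 4 each). It was followed by Fbxo18, also known as the DNA helicase Fbh1, at a mean of 17.3 over all mice, by Fbxw8 at 15.6, by Fbxl22 at 14.9 and by Fbxo3 at 14.3. Fbxw5 lay above these 4 by more than their SDs in both groups. In PBS mice the value of Fbxl22, 15.7 ± 5.9, lay within its SD of the other 3, so its place is not resolved there, whereas Fbxo18 (16.5 ± 0.50) lay above Fbxw8 (14.4 ± 1.1) by more than their SDs. In LLC1 mice Fbxo18 (18.05 ± 0.39) and Fbxw8 (16.7 ± 0.75) lay above Fbxl22 (14.1 ± 1.3) and Fbxo3 (13.9 ± 0.38), and the last pair did not differ beyond its SDs. These SDs are the spread between mice and do not cover reads that a gene shares with another. In Fbxw8, 33.4% of exonic bases are shared with Gm9754 on the other strand. The strand setting of the counting is not stated, so the place of Fbxw8 is not settled. The lowest tested members were Fbxo17, Fbxo24 at 0.501 and Fbxo36 at 0.513. Of 11 members with at least 1 count that were too low to test, totals over the 8 libraries ran from 1 to 60, and no mouse had more than 12. They included Fbxo2 with 22 counts, a glycoprotein receptor known mainly from neurons, and Fbxl21 with 37.

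**Figure D2:**
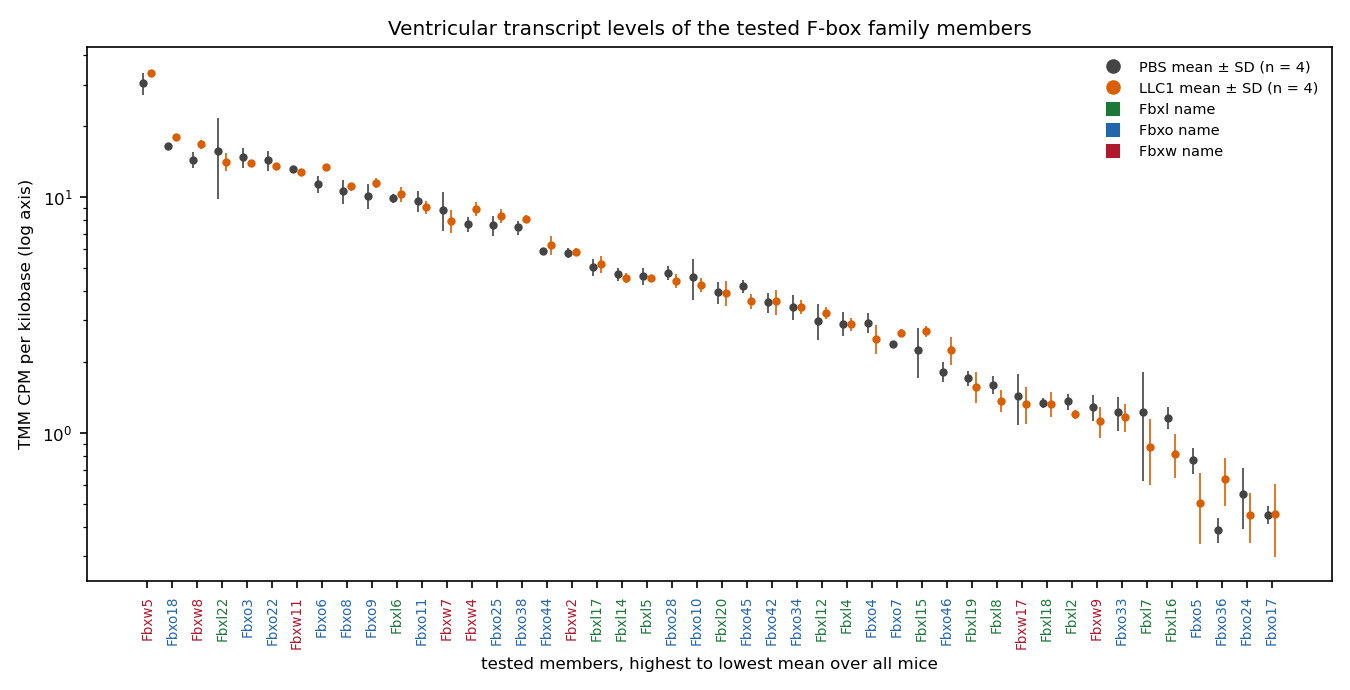
Mean ± SD of the level in TMM CPM per kilobase (y axis, log scale) for 46 of the 47 tested members in order of their mean over all mice (x axis), in PBS (gray) and LLC1 (orange) mice, n = 4 each. Levels fall from 32.03 for Fbxw5 to 0.452 for Fbxo17, the group means of a gene lie close together compared with the range of the family, and the widest bar among the abundant members is that of Fbxl22 in PBS mice.

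The design asks how the ventricle differs between mice given LLC1 cells and mice given PBS. No F-box member was called between the groups by edgeR's quasi-likelihood test at a false discovery rate (FDR) under 0.05, where 8.73% of the 16111 tested genes were called, 4.12% higher and 4.61% lower. At an unadjusted p under 0.05 there were 9 members, 6 higher and 3 lower in LLC1 mice, which is 9 of 47 where 25.5% of all tested genes reached that level. DESeq2 called 1 member, Fbxw8, and limma-voom called 0, where these tools called 10.9% and 8.60% of all tested genes. In 8 members the 4 values of a group lay entirely above those of the other, 6 higher in LLC1 mice and 2 lower, where 17.2% of all tested genes were separated in this way, 8.89% higher and 8.27% lower. Neither count of members, in both directions together, exceeded the share among all genes. Full separation always gives 0.0286 in the exact two-sided permutation test, the smallest p that the 70 arrangements of 8 mice allow. For these members that p therefore only restates the separation.

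The size of the differences was bounded by the data. Over the 47 members the median log2 fold change (LLC1 over PBS) was -0.007, beside -0.010 over all tested genes, with 21 members above 0 and 26 below. The median absolute log2 fold change was 0.11 in the members, beside 0.15 in all tested genes, and the median standard error was 0.095. For 40 of the 47 members the whole 95% interval lay within 1.5-fold either way, where this held for 68.1% of all tested genes, and for 44 it lay within 2-fold. The summed level of the tested members was 1272 to 1302 CPM in LLC1 mice and 1234 to 1332 CPM in PBS mice, so that the groups overlapped. The overlap came from PBS 1-1, at 1332 CPM, and the other 3 PBS mice, at 1234, 1265 and 1237 CPM, lay below all LLC1 mice.

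**Figure D3:**
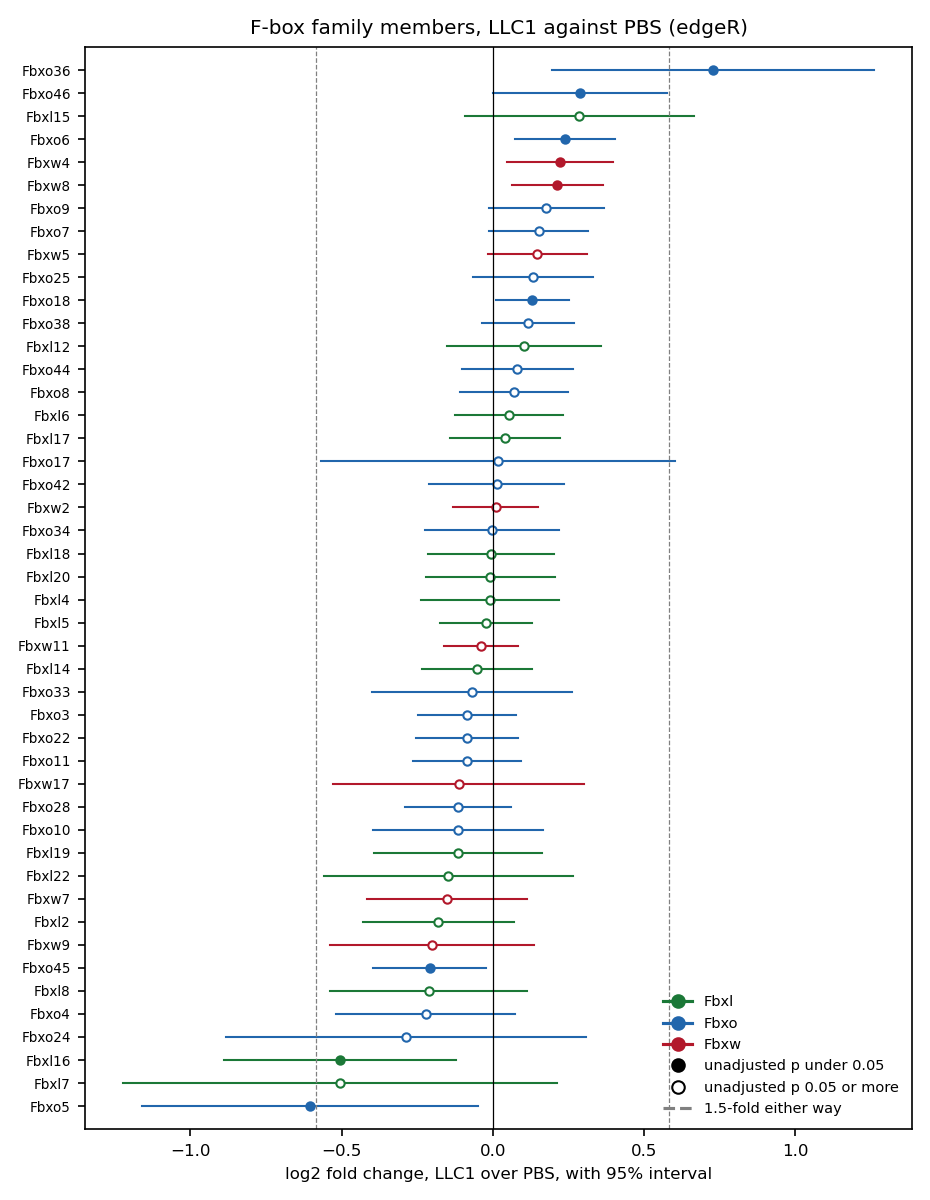
Log2 fold change of 46 of the 47 tested members (x axis, LLC1 over PBS, edgeR) with its 95% interval, ordered by size and colored by name class, with filled points where the unadjusted p was under 0.05 and dashed lines at 1.5-fold either way. Values run from -0.60 for Fbxo5 to 0.73 for Fbxo36, 39 of the 46 intervals lie between the dashed lines, and no member reached an FDR under 0.05.

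Among the receptors of the cell cycle and of growth signaling, 11 of 12 members were tested, with 4 log2 fold changes above 0 and 7 below. Fbxw8, which pairs with the scaffold Cul7 as well as Cul1, had 83.9, 84.1, 78.2 and 87.0 CPM in LLC1 mice and 64.7, 74.7, 70.7 and 77.0 CPM in PBS mice. Every LLC1 value lay above every PBS value, with the nearest pair 78.2 and 77.0. The log2 fold change was 0.21 with a standard error of 0.069 and an FDR of 0.0743, which ranged from 0.0201 to 0.319 over the alternative analyses of all mice and was 0.0484 by DESeq2. In the annotation (GENCODE M21), 33.4% of its exonic bases are shared with Gm9754 on the other strand, and the strand setting of the counting is not stated. If strand was not used, reads from these shared bases cannot be assigned to 1 of the genes. Gm9754 had a log2 fold change of 0.25 (FDR 0.231).

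Fbxo5 (Emi1), an inhibitor of the anaphase-promoting complex, had 0.728, 1.45, 0.766 and 1.11 CPM in LLC1 mice and 1.46, 1.68, 1.29 and 1.71 CPM in PBS mice. The groups overlapped, since LLC1 1-3 lay above PBS 2-1. Its log2 fold change was -0.60 with a standard error of 0.26 and an FDR of 0.162. Markers of dividing cells moved beside it, as all 3 of the 6 that could be tested (Mki67, Top2a and Cdk1) were lower in LLC1 mice at an FDR under 0.05, and the list summed to 2.11 to 4.70 CPM against 14.1 to 45.2 CPM in PBS mice. The part of dividing cells in the Fbxo5 value was not tested, and in bulk tissue fewer cells of a type and less RNA per cell cannot be told apart.

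Fbxw5 had 104, 102, 104 and 101 CPM in LLC1 mice and 78.8, 93.9, 98.3 and 99.8 CPM in PBS mice. The groups did not overlap, but 3 of the 4 PBS values lay close under the LLC1 values, with PBS 1-1 lowest. Its log2 fold change was 0.15 (FDR 0.240), and 0.08 (FDR 0.401) without that mouse. Fbxw7, the receptor for cyclin E, Myc and Notch, had 50.8 to 64.6 CPM in LLC1 mice and 49.9 to 77.5 CPM in PBS mice, with a log2 fold change of -0.15 (95% interval -0.42 to 0.11). PBS 1-1 was the highest, and the value was -0.03 (FDR 0.882) without it. Fbxw11, a β-TrCP that acts on β-catenin and IκB, varied little, with 53.9 to 57.2 CPM in LLC1 mice, 56.3 to 58.6 CPM in PBS mice and a log2 fold change of -0.04 (95% interval -0.16 to 0.08). Fbxo4, which acts on cyclin D1, had a log2 fold change of -0.22 (FDR 0.332), with 4.50 to 6.07 CPM in LLC1 mice and 5.47 to 6.86 CPM in PBS mice.

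Receptors for sugar chains on glycoproteins and their close relatives formed a group of 5, of which 3 were tested. Fbxo6, which binds N-glycans of misfolded glycoproteins, had the lowest FDR of the family. Its values were 30.3, 29.4, 30.0 and 28.5 CPM in LLC1 mice and 24.5, 24.2, 28.0 and 23.3 CPM in PBS mice. All LLC1 values lay above all PBS values, with PBS 2-1 nearest to them. The log2 fold change was 0.24 with a standard error of 0.075 and an FDR of 0.0697, and without PBS 2-1 it was 0.30 (FDR 0.0402, where leaving out any 1 mouse gave 0.0402 to 0.182). Fbxo44 and Fbxo17 of the same group had log2 fold changes of 0.08 (FDR 0.585) and 0.02 (FDR 0.977), and their groups overlapped.

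Of the 4 members with a described role in muscle or in muscle-like signaling, all were tested. Fbxl22 is a cardiac-enriched member of the sarcomeric Z-disc, known to act on α-actinin and filamin C. Its values were 59.6, 51.7, 60.1 and 50.8 CPM in LLC1 mice and 95.9, 55.5, 49.7 and 46.2 CPM in PBS mice. A single mouse, PBS 1-1, lay far above all others, and the remaining 7 overlapped. The log2 fold change of -0.15 (FDR 0.667) became 0.14 (FDR 0.314) without that mouse. Fbxl16, an unusual member that does not assemble with Cul1, had 1.98, 3.23, 2.84 and 3.32 CPM in LLC1 mice and 3.52, 3.86, 4.41 and 4.37 CPM in PBS mice. The groups did not overlap, with LLC1 1-2 lowest. The log2 fold change was -0.51 with a standard error of 0.18 and an FDR of 0.0971. Fbxo25, which acts on the cardiac transcription factor Nkx2-5, had a log2 fold change of 0.13 (FDR 0.386), and Fbxl2 one of -0.18 (FDR 0.353).

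**Figure D4:**
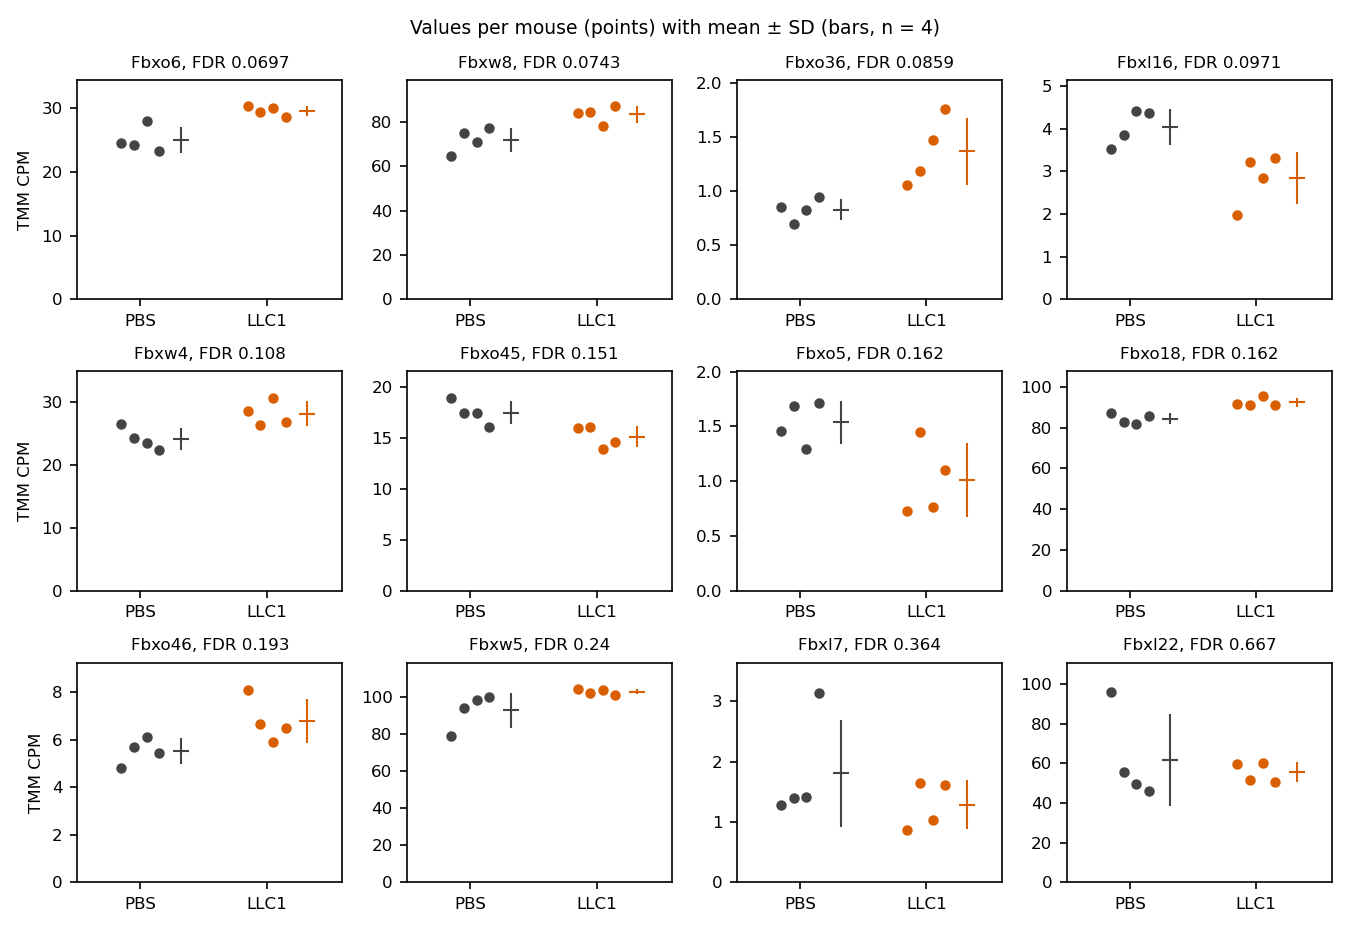
TMM CPM per mouse (y axes from 0, points) with mean ± SD (bars, n = 4) in PBS (gray) and LLC1 (orange) mice for the 9 members with an unadjusted p under 0.05 and for Fbxw5, Fbxl7 and Fbxl22. Groups are separate for Fbxo6, Fbxw8, Fbxo36, Fbxl16, Fbxo45, Fbxo18 and Fbxw5, whereas a single PBS mouse stands above the rest for Fbxl7 (3.13 CPM) and Fbxl22 (95.9 CPM).

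Receptors tied to mitochondria and iron had log2 fold changes between -0.02 and 0.15. Fbxo7, which takes part in mitophagy, had 15.5, 16.7, 16.2 and 17.1 CPM in LLC1 mice and 14.8, 14.4, 14.7 and 15.1 CPM in PBS mice. The groups were separate but close, and the log2 fold change was 0.15 (FDR 0.227). Fbxl5, the iron-sensing receptor for Ireb2, had a log2 fold change of -0.02 (95% interval -0.17 to 0.13), and 0.03 (FDR 0.801) without PBS 1-1. Fbxl4, which restrains the mitophagy receptors Bnip3 and Bnip3l, had a log2 fold change of -0.01 (95% interval -0.24 to 0.22), and 0.04 (FDR 0.874) without PBS 1-1.

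All 11 receptors acting on transcription factors and stress signaling were tested, 5 with log2 fold changes above 0 and 6 below, and none had an unadjusted p under 0.05 in the fit of all 8 mice. Fbxl15, which acts on the BMP pathway ligase Smurf1, was the farthest from 0. It had 3.84, 3.56, 3.77 and 3.42 CPM in LLC1 mice and 4.03, 3.01, 2.35 and 2.72 CPM in PBS mice, so that PBS 1-1 lay above every LLC1 mouse. The log2 fold change was 0.29 (FDR 0.325), 0.44 (FDR 0.0880) without PBS 1-1 and 0.18 (FDR 0.586) without PBS 2-1, and 25.6% of its exonic bases are shared with Cuedc2 on the other strand. Fbxo11 and Fbxo10, the receptors for Bcl6 and Bcl2, had -0.08 (FDR 0.555) and -0.11 (FDR 0.621). Without PBS 1-1 the value of Fbxo11 was -0.01 (FDR 0.926) and that of Fbxo10 was -0.24, with an unadjusted p of 0.0174 and an FDR of 0.0959 by edgeR. Fbxo22, which acts on Kdm4a and Bach1, had -0.08 (FDR 0.532), and -0.03 (FDR 0.822) without PBS 1-1.

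In the membrane and synapse group, 5 of 6 members were tested. Fbxo45, which works with the large ligase Mycbp2 rather than Cul1 in neurons, had 15.9, 16.1, 13.9 and 14.6 CPM in LLC1 mice and 19.0, 17.5, 17.4 and 16.1 CPM in PBS mice. The groups did not overlap, although LLC1 1-3 and PBS 2-5 both stood near 16.1 CPM. The log2 fold change was -0.21 with a standard error of 0.086 and an FDR of 0.151. Fbxl7 had 0.860 to 1.65 CPM in LLC1 mice and 1.29, 1.40, 1.41 and 3.13 CPM in PBS mice. Its log2 fold change of -0.51 (FDR 0.364) was -0.09 (FDR 0.868) without PBS 2-5, the highest mouse, and -0.33 with the leading number of each code as covariate. Fbxo3, among the most abundant members, had -0.08 (95% interval -0.25 to 0.08), and -0.03 (FDR 0.843) without PBS 1-1.

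Of the 28 members placed in no role group, 9 were tested. Fbxo36 had the largest log2 fold change of the family and one of the lowest levels. Its values were 1.06, 1.19, 1.48 and 1.76 CPM in LLC1 mice and 0.858, 0.701, 0.824 and 0.944 CPM in PBS mice, from 146 counts over all 8 libraries. The groups did not overlap, and the log2 fold change was 0.73 with a standard error of 0.25 and an FDR of 0.0859. Fbxo18 (Fbh1), which unwinds DNA at recombination sites, had 91.8, 91.2, 95.3 and 91.0 CPM in LLC1 mice and 87.3, 82.7, 81.8 and 85.6 CPM in PBS mice. These groups were separate as well, with a log2 fold change of 0.13 (FDR 0.162), or 0.08 (FDR 0.466) under library totals. Fbxw4, known from a mouse limb mutant, had 28.6, 26.4, 30.7 and 26.9 CPM in LLC1 mice and 26.5, 24.3, 23.6 and 22.4 CPM in PBS mice. There LLC1 1-3 lay just under PBS 1-1, and the log2 fold change was 0.22 (FDR 0.108), or 0.27 (FDR 0.0432) without PBS 1-1, where leaving out any 1 mouse gave FDRs of 0.0432 to 0.259. In GENCODE M21, 21.4% of its exonic bases are shared with Gm17018 on the other strand. Fbxo46 had 0.29 (FDR 0.193) and Fbxo24 had -0.29 (FDR 0.551), both with overlapping groups. Fbxo46 shares 9.54% of its exonic bases with a gene on the other strand. Fbxo24 shares 9.95% with a gene on the other strand and 4.46% with one on the same strand. The value of Fbxo24 was -0.11 (FDR 0.844) without PBS 2-5, -0.16 (FDR 0.786) without LLC1 1-2 and -0.47 (FDR 0.309) without PBS 2-1.

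The partners of the receptors were read from the same fit. Over all tested genes 8.73% were called and 25.5% had an unadjusted p under 0.05 by edgeR. None of the 5 genes of the SCF core was called, with 0 of 5 at that level. The adaptor Skp1a had a log2 fold change of -0.14 (FDR 0.399), the scaffolds Cul1 and Cul7 had -0.01 (FDR 0.930) and 0.18 (FDR 0.330), and the RING subunits Rbx1 and Rnf7 had 0.07 (FDR 0.574) and -0.03 (FDR 0.853). None of 9 E1 and E2 enzymes and their helpers was called, with 1 of 9 at an unadjusted p under 0.05 by edgeR. None of 14 genes of the COP9 signalosome and Cand1 group was called, with 2 of 14 at that level. In the neddylation list, which supplies the modification that activates cullins, 1 of 10 was called and higher, Nedd8 itself, and 4 of 10 had an unadjusted p under 0.05. Of these 10 genes, 2 had log2 fold changes above 0 and 8 below, with a median of -0.09. Nedd8 rose from 51.1 ± 3.6 CPM in PBS mice to 63.2 ± 5.3 CPM in LLC1 mice (SD, n = 4 each), a log2 fold change of 0.30 (FDR 0.0313), and the groups did not overlap. The call was kept without PBS 1-1 or PBS 2-5 and lost without any other single mouse (FDR up to 0.0945), and it was lost under library totals (FDR 0.115) and with length offsets (log2 fold change 0.18, FDR 0.106).

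Among F-box genes that carry other names, 7 were tested and none was called, with 3 of 7 at an unadjusted p under 0.05, where 25.5% of all tested genes reached it. A further list held 31 genes chosen as substrates or partners of F-box receptors, and not each is an established substrate. Of these, 5 were called, 1 higher and 4 lower, and 12 had an unadjusted p under 0.05. The shares over all tested genes were 8.73% and 25.5%. The mitophagy receptor Bnip3 rose, with 169 ± 14 CPM in LLC1 and 133 ± 14 CPM in PBS mice (log2 fold change 0.35, FDR 0.0278). The G1 cyclin Ccnd1 fell, with 42.8 ± 3.5 CPM against 89.5 ± 18 CPM (log2 fold change -1.06, FDR 7.8e-04). Ccne2, Cdc25a and Cdc20 fell as well, with log2 fold changes of -0.51 (FDR 0.0319), -0.47 (FDR 0.0468) and -1.42 (FDR 0.0281). Ccnd1 kept its call when any 1 mouse was left out. Bnip3 kept it in 3 of 8 such fits (without LLC1 2-2, PBS 1-1 or PBS 2-5), Cdc20 in 3 of 8 (without LLC1 1-5, PBS 1-1 or PBS 2-1), and Ccne2 and Cdc25a in 1 of 8 (without PBS 1-1), with FDRs up to 0.127 in the others. Among the 9 other analyses of all mice, Cdc25a was called in 3, with FDRs of 0.0451 to 0.0726 over all of them, and Ccne2 lost its call without the filter on low counts (FDR 0.0667). The 4 lower genes drive the division cycle, and the dividing-cell markers given beside Fbxo5 were lower in the same mice. The part of dividing cells in these values was not tested.

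Cell type markers also moved with the groups. At an FDR under 0.05, 3 of 6 fibroblast markers, 2 of 5 endothelial markers and 1 of 4 tested macrophage markers were lower in LLC1 mice, whereas 2 of 3 tested neutrophil markers (S100a8 and S100a9) and 1 of 6 cardiomyocyte markers (Myh6) were higher. Of the skeletal muscle list only Ckm, which the heart also expresses, was called, and it was higher, while Myh1 and Myh4 had 8 and 0 counts in all mice together. The summed cardiomyocyte markers were 87357 to 93852 CPM in LLC1 mice against 78434 to 80626 CPM in PBS mice. Myh6 made up most of that sum, with means of 54333 and 45869 CPM. Of the 6 markers 4 had log2 fold changes above 0 (Myh6, Tnnt2 at 0.22 with an FDR of 0.0526, Tnni3 at 0.20 and Myl2 at 0.13), while Actc1 and Ryr2 had -0.05 (FDR 0.752) and -0.17 (FDR 0.351). The summed neutrophil markers were 3.27 to 6.06 CPM against 1.24 to 2.92 CPM. The part of these shifts in the values of the members was not tested.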

How the data were processed

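Total RNA from the ventricles of 8 mice was made into TruSeq v2 libraries for Illumina sequencing. The authors deposited raw gene counts on mm10, and the submitters' processing notes name CASAVA, STAR and featureCounts. Their versions, the annotation release and the strand setting are not given in the sources used here. Groups were taken from the stated treatment, and no 2 libraries agreed within counting noise. Nothing says more than that the samples are separate mice, so p-values measure the spread between them. The count of 3 and all intervals on counts cover counting error only.

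Genes passing edgeR's (4.0.16) filter on low counts, 16111 in all, were fitted with TMM factors and the quasi-likelihood test, FDR by Benjamini-Hochberg over all of them. CPM per kilobase uses the length in the deposited table. DESeq2 (1.42.0), limma-voom (3.58.1), other scalings and filters, a covariate, length offsets and leaving out each mouse were the alternatives, and the fits were tested on simulated data. DESeq2 gave no adjusted p for 329 genes, no member among them. Exon overlaps came from GENCODE M21, transcript matches from BLAST (2.17.0) and promoters from RefSeq (GRCm38.p6), matched by symbol for 54 members, 51 of them within 1000 bases. Fbxw11's RefSeq start lay upstream of its gene in the table. Other members described also shared exonic bases with a gene on the other strand, among them Fbxo22 (15.4%), Fbxl2 (11.2%) and Fbxl22 (8.06%). Members named singly were the 5 with the largest changes each way, the 5 highest and 3 lowest levels and any member of a role group, and pathway genes were named where called or in the SCF core. Untested members, genes of the marker lists, Fbxw17, Gm9754 and Gm17018 were named after their values were seen. The values of 1 member are not reported here. The members and lists were chosen with earlier results of these data known.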

Additional observations from a re-analysis of the deposited data

Results flagged for a closer look

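In 5 of 94 groups of 4 mice (47 members in 2 treatment groups) a single mouse stood apart, with a gap to its nearest neighbor above Dixon's 95% limit for the whole range of the group, a limit that chance passes in about 5% of groups. In the PBS group, PBS 2-5 had 3.13 CPM of Fbxl7, where the others had 1.29 to 1.41 CPM, and 36.0 CPM of Fbxo38, where the others had 31.2 to 32.02 CPM. PBS 1-1 had 46.0 CPM of Fbxo11 beside 37.8 to 38.1 CPM, and 58.6 CPM of Fbxw11 beside 56.3 to 56.7 CPM. In the LLC1 group, LLC1 1-5 had 14.4 CPM of Fbxl14, where the other 3 mice each had 13.1 CPM. Of the 47 members, the highest PBS mouse was PBS 1-1 in 20 and PBS 2-5 in 15, and the lowest was PBS 1-1, PBS 1-3 or PBS 2-5 in 13 each.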

How the results depend on the processing

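The number of members called was 0 in the main analysis and 1 under DESeq2, with the leading number of each mouse's code as covariate and with offsets for gene length. That member was Fbxw8 each time, with a log2 fold change of 0.22 (FDR 0.0484), 0.23 (FDR 0.0473) and 0.27 (FDR 0.0201). Leaving out each mouse gave 0 to 1 members, namely Fbxw4 without PBS 1-1, Fbxo6 without PBS 2-1 and Fbxw8 without PBS 2-5. The median log2 fold change of the members was -0.062 under library totals only, where that of all genes was -0.065, and 4 members had separate groups, as did 15.6% of all genes; leaving out each mouse gave medians from -0.032 to 0.019 and 8 to 14 separate members, where 19.8% to 25.7% of all genes were separate with 7 mice and 17.2% with 8. The pathway lists held 11 called genes under DESeq2, 11 with the covariate, 10 with length offsets and 1 to 8 when a mouse was left out, with 1 each without LLC1 1-2, LLC1 1-3 and PBS 1-3. Over all genes 542 to 1949 were called when a mouse was left out. Of all calls 47.2% were higher in the main analysis, but 22.1% under library totals and 61.2% with length offsets. The 13 members with the largest changes each way or an unadjusted p under 0.05 (Fbxo6, Fbxw8, Fbxo36, Fbxl16, Fbxw4, Fbxo45, Fbxo5, Fbxo18, Fbxo46, Fbxl15, Fbxl7, Fbxo24 and Fbxo4) kept their sign under all 17 alternatives, with 6 of 221 values newly past the threshold, while Fbxl22, Fbxl5, Fbxl4 and Fbxl18 turned sign without PBS 1-1. No paired analysis was possible because the groups share only 1 replicate code. Low counts limit Fbxo36, Fbxo5, Fbxl7, Fbxo24 and Fbxo17. The cause of these shifts was not tested.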
